A study of Homo sapiens with 8 samples.

Results

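MHC class I antigen presentation was followed through 9 genes: the heavy chains HLA-B, HLA-C, HLA-E and HLA-F, their common light chain B2M, the peptide transporter subunits TAP1 and TAP2, the loading factor TAPBP and the transcriptional activator NLRC5. Members were taken by symbol from the first column of the deposited table, which listed 17561 genes. Of the 9 genes, 4 had a row (HLA-B, B2M, TAPBP and NLRC5), while HLA-C, HLA-E, HLA-F, TAP1 and TAP2 had no row and were not analysed here. The libraries were made from HepG2, a human liver tumor line that keeps many hepatocyte traits, and RNA was taken 48 h after cells received either pGRHL2 or the control plasmid pcDNA3. The pGRHL2 construct encoded a flag-tagged cDNA of the epithelial transcription factor GRHL2 driven by an EEF1A1 promoter and also enhanced green fluorescent protein, so the plasmids differed in more than the GRHL2 insert. Both groups were grown in the same medium, which contained insulin and dexamethasone, and each comprised 4 libraries numbered 1 to 4.

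Class I molecules display peptides from the inside of the cell to CD8 T cells and natural killer cells. Peptides cut by the proteasome are carried into the endoplasmic reticulum by the TAP1/TAP2 transporter, and tapasin (TAPBP) holds an empty heavy chain paired with β2-microglobulin (B2M) next to the transporter until a peptide fits. NLRC5 enters the nucleus and activates class I and B2M promoters through DNA-bound RFX, CREB/ATF and NF-Y factors, and interferons raise most genes of the pathway through factors such as IRF1. Hepatocytes express class I molecules at low levels when compared with leukocytes, and interferon induces them.

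The 4 measured members lie on 3 chromosomes, with HLA-B and TAPBP inside the MHC region of chromosome 6 and B2M and NLRC5 outside it. The hg38 genome carries further versions of some regions as alternate contigs, 261 in all, and several of these are other haplotypes of the MHC region. A stretch of 90 coding bases is shown for each measured member, because the stretches illustrate how much of a member occurs again on an alternate contig. Capitals mark positions at which the best ungapped match on at least 1 alternate contig of the same chromosome has another base.

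HLA-B exon 2, chr6:31356777-31356866, minus strand: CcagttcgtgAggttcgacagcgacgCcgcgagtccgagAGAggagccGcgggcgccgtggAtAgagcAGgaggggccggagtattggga
TAPBP exon 2, chr6:33313734-33313823, minus strand: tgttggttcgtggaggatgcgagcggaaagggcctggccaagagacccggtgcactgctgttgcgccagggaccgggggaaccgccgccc
B2M exon 2, chr15:44715517-44715606, plus strand: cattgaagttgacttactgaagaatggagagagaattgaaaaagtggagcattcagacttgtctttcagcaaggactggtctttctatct
NLRC5 exon 3, chr16:57020815-57020904, plus strand: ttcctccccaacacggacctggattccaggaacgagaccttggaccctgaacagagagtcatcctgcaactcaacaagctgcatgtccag

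The HLA-B stretch, from the polymorphic part of the heavy chain that binds the peptide, had a near copy with 1 to 6 differences on each of 7 alternate contigs, and 11 of its 90 positions differed in at least 1 of them. Since class I heavy chain genes resemble each other, the nearest match on a contig may belong to another heavy chain. The TAPBP stretch occurred unchanged on 4 alternate contigs and the B2M stretch on 1. The NLRC5 stretch had 0 such copies.

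The transfected gene was checked first. GRHL2 had a log2 fold change (log2 FC, pGRHL2/pcDNA3) of 9.48 ± 0.57 (SD, n = 4 pairs), with groups that did not overlap. All 6 hepatocyte markers were listed, with mean log2 levels from 9.83 to 17.11 and log2 FC from -0.03 to 0.28 (FGB, adjusted p by limma 0.249). Among the leukocyte markers PTPRC, CD3E and CD68 had no row, while LYZ had a level of 13.27 and CD14 and CD79A had levels of 4.02 and 4.17. Of 4 endothelial markers, PECAM1 and VWF had levels of 5.43 and 1.91, and CDH5 and KDR had no row. Of 4 stellate and fibroblast markers, COL1A1 had a level of 5.83 and a log2 FC of 0.20 (adjusted p by limma 0.084), PDGFRB had a level of 5.08 and a log2 FC of -0.01 (adjusted p by limma 0.981), and COL1A2 and DCN had no row. Over the 4 marker lists, 0 genes were called, against 2.19% of all genes. Read totals were not used here, and the depth behind each value is unknown. Values are on a log2 scale. According to the paper, rlog values were divided by transcript length, and how length entered the values used here was not checked. Levels of different genes are therefore set side by side only as a rough guide. Averaging the pGRHL2 and pcDNA3 libraries of one number gave the same value for all 4 numbers in 17561 of 17561 genes, so the groups mirror each other, and an increase in one library cannot be told apart from a decrease in its partner.

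The levels of the 4 measured members lay far apart. B2M had the highest mean level, at 11.02, which was above that of 94.8% of the listed genes. NLRC5 followed at 7.61, above 58.4% of the genes. TAPBP at -0.21 and HLA-B at -0.48 lay above only 2.85% and 1.94% of the genes. The gaps between B2M, NLRC5 and the other two members were larger than the spread over the 8 libraries, and HLA-B and TAPBP did not overlap either.

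**Figure D1:**
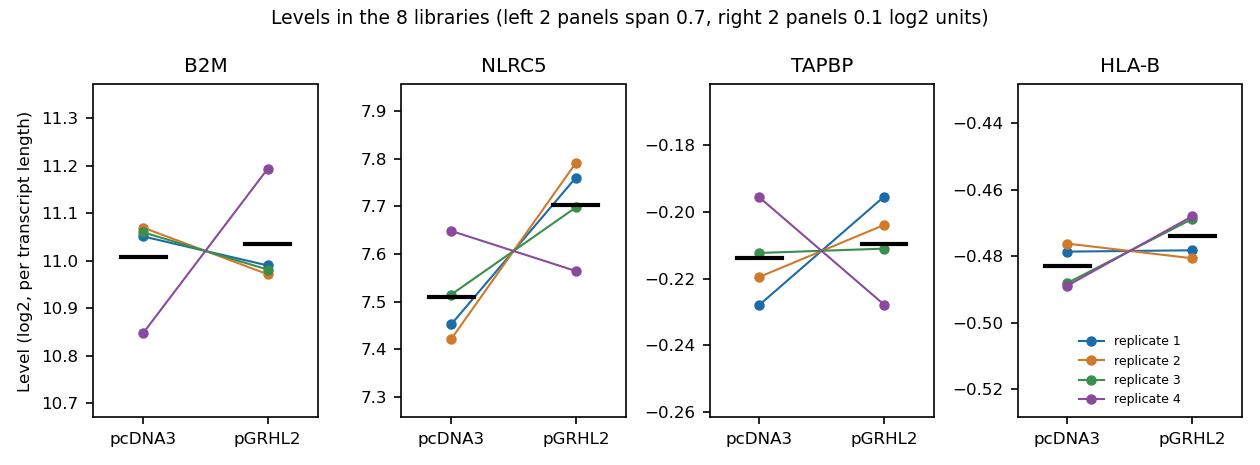
Log2 level of the 4 measured members (vertical axis) in the pcDNA3 and pGRHL2 libraries, with a line joining libraries of the same number and black bars for group means. The lines of a gene cross at one point because the pair means are equal, and in B2M replicate 4 runs against replicates 1 to 3. The axes of TAPBP and HLA-B span 0.1 log2 units, whereas those of B2M and NLRC5 span 0.7.

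Next, pGRHL2 was compared with pcDNA3 to ask whether forced GRHL2 expression altered transcripts of the class I pathway. Of the 4 measured members, 0 were called by limma (adjusted p under 0.05), against 2.19% of all genes (1.69% higher and 0.501% lower in pGRHL2). The count at an unadjusted p under 0.05 was 1, NLRC5, against 16.0% of all genes. Groups overlapped for all 4 measured members, whereas they did not overlap for 24.0% of all genes. Because the pair means are equal, groups do not overlap exactly when all 4 pair differences have the same sign, so these are 1 observation. Robust limma called 0 of the 4 as well.

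B2M, the light chain shared by all class I heavy chains, is encoded on the plus strand of chromosome 15 (44711358 to 44718851). With pGRHL2, libraries 1 to 4 had log2 levels of 10.99, 10.97, 10.98 and 11.19, against 11.05, 11.07, 11.06 and 10.85 with pcDNA3. B2M was thus slightly lower with pGRHL2 in 3 pairs, by 0.06, 0.10 and 0.08, and higher by 0.35 in pair 4. The mean pair difference gave a log2 FC of 0.03 ± 0.21 (SD, n = 4 pairs) and a 95% interval from -0.15 to 0.21 that corresponds to 0.899-fold to 1.15-fold (limma adjusted p of 0.922). The sign depended on pair 4, since the log2 FC without replicate 4 was -0.08 (limma adjusted p of 0.482).

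NLRC5, the activator of class I transcription, is encoded on the plus strand of chromosome 16 (56989485 to 57083531). Its levels in pGRHL2 libraries 1 to 4 were 7.76, 7.79, 7.70 and 7.56, whereas pcDNA3 libraries 1 to 4 had 7.45, 7.42, 7.51 and 7.65. NLRC5 was therefore higher with pGRHL2 in 3 of 4 pairs, with pair differences of 0.31, 0.37 and 0.18, and lower in pair 4, with a difference of -0.08. The log2 FC of 0.19 ± 0.20 (SD, n = 4 pairs) corresponds to 1.14-fold, with a 95% interval from 1.01-fold to 1.29-fold. It did not pass the threshold over all genes (limma unadjusted p of 0.0351, adjusted p of 0.266), and an exact two-sided permutation of the signs over pairs gave p = 0.25. Of the 16 sign patterns of 4 pairs at least 2 are as extreme as the data, so this test cannot pass 0.05 here. Without replicate 4 the log2 FC was 0.29 (limma adjusted p of 0.088), and without the replicate block it was 0.19 (limma adjusted p of 0.060). The fit without the block counts the mirrored libraries of a pair as independent.

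In each of the 4 pairs, B2M and NLRC5 differed in opposite directions. NLRC5 was higher and B2M lower with pGRHL2 in pairs 1 to 3, and the reverse held in pair 4. With 4 pairs this is a description of these libraries.

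HLA-B, a classical heavy chain, is encoded on the minus strand of chromosome 6 (31353872 to 31367067). Its levels were -0.48, -0.48, -0.47 and -0.47 in pGRHL2 libraries 1 to 4 and -0.48, -0.48, -0.49 and -0.49 in pcDNA3 libraries 1 to 4. The mean pair difference gave a log2 FC of 0.01 ± 0.01 (SD, n = 4 pairs) and a 95% interval from -0.01 to 0.03 (limma adjusted p of 0.703).

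TAPBP, the gene of tapasin, lies on the minus strand of chromosome 6 (33299694 to 33314284). The pGRHL2 libraries 1 to 4 had levels of -0.20, -0.20, -0.21 and -0.23, compared with -0.23, -0.22, -0.21 and -0.20 in pcDNA3 libraries 1 to 4. The mean pair difference gave a log2 FC of 0.00 ± 0.03 (SD, n = 4 pairs) and a 95% interval from -0.02 to 0.03 (limma adjusted p of 0.916).

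The narrow intervals of HLA-B and TAPBP stood beside low levels. The rlog transformation used by the authors pulls values of genes with few reads towards their mean. Among the 1016 genes with a mean level between -1 and 0.5, the median SD of the pair differences was 0.023, and the largest absolute log2 FC was 0.19. Among the 10858 genes with a level of at least 5, the median SD was 0.12. HLA-B and TAPBP values therefore limit the change on this shrunken scale, and a change in the underlying transcripts was not bounded by them.

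The genes that act with the members were examined in lists. At a limma adjusted p under 0.05, 0 of their 63 genes with a row were called, against 2.19% of all genes. With a share this low, the count of 0 is not read as a result about the lists. An unadjusted p under 0.05 was found for 12 of the 63 (19.0%), with 7 higher and 5 lower in pGRHL2, against 16.0% of all genes (1611 higher and 1191 lower). The median log2 FC was 0.03 over the 63 genes and 0.00 over all genes of the table. Robust limma called ATF1 lower (adjusted p of 0.0492), and the fit with library weights called ATF1 and MARCHF9 lower (adjusted p of 0.0379 and 0.0262).

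Peptide loading and trimming genes were all listed, 8 of 8, with levels from 6.36 to 13.55. CALR, the chaperone calreticulin that recruits heavy chains to the loading complex, had a level of 13.55 and a log2 FC of 0.04, with pair differences of 0.09, 0.22, 0.11 and -0.26 (limma adjusted p of 0.848). PDIA3, the disulfide isomerase that pairs with tapasin, had a level of 12.56 and a log2 FC of 0.01 (adjusted p by limma 0.936). The aminopeptidases ERAP1 and ERAP2, which trim peptides in the endoplasmic reticulum, had log2 FC of 0.07 and 0.06 and overlapping groups. The median over the 8 genes was 0.05.

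Of the 8 proteasome genes, 6 had a row and 0 were called, against 2.19% of all genes. The catalytic subunits PSMB8 and PSMB9, whose genes lie beside TAP1 and TAP2, had no row. PSMB10, the remaining interferon-inducible catalytic subunit, had a level of 5.16 and a log2 FC of 0.09 (adjusted p by limma 0.406). The constitutive subunits PSMB5, PSMB6 and PSMB7 had levels from 11.50 to 12.72 and log2 FC of 0.01, -0.08 and 0.09. PSME1, a subunit of the proteasome activator PA28, had pair differences of 0.15, 0.21, 0.10 and 0.16. Its groups therefore did not overlap, as was the case for 24.0% of all genes. Its log2 FC of 0.16 did not pass the threshold (limma adjusted p of 0.121), and its partner PSME2 had a log2 FC of 0.09 (adjusted p by limma 0.452).

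Of 14 factors that act on class I promoters, all 14 were listed. RFX5, the DNA-binding subunit of the RFX complex that NLRC5 needs, had a level of 9.61 and a log2 FC of 0.06 (adjusted p by limma 0.669). IRF1, an interferon-induced activator, had a log2 FC of 0.14 (adjusted p by limma 0.363), with pair differences of -0.08, 0.17, 0.25 and 0.22. ATF1, a CREB family factor, had pair differences of -0.28, -0.20, -0.23 and -0.23 and a log2 FC of -0.23 (adjusted p by limma 0.065). NFKB1, which encodes the p50 subunit of NF-κB, had a log2 FC of -0.16 (adjusted p by limma 0.260).

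**Figure D2:**
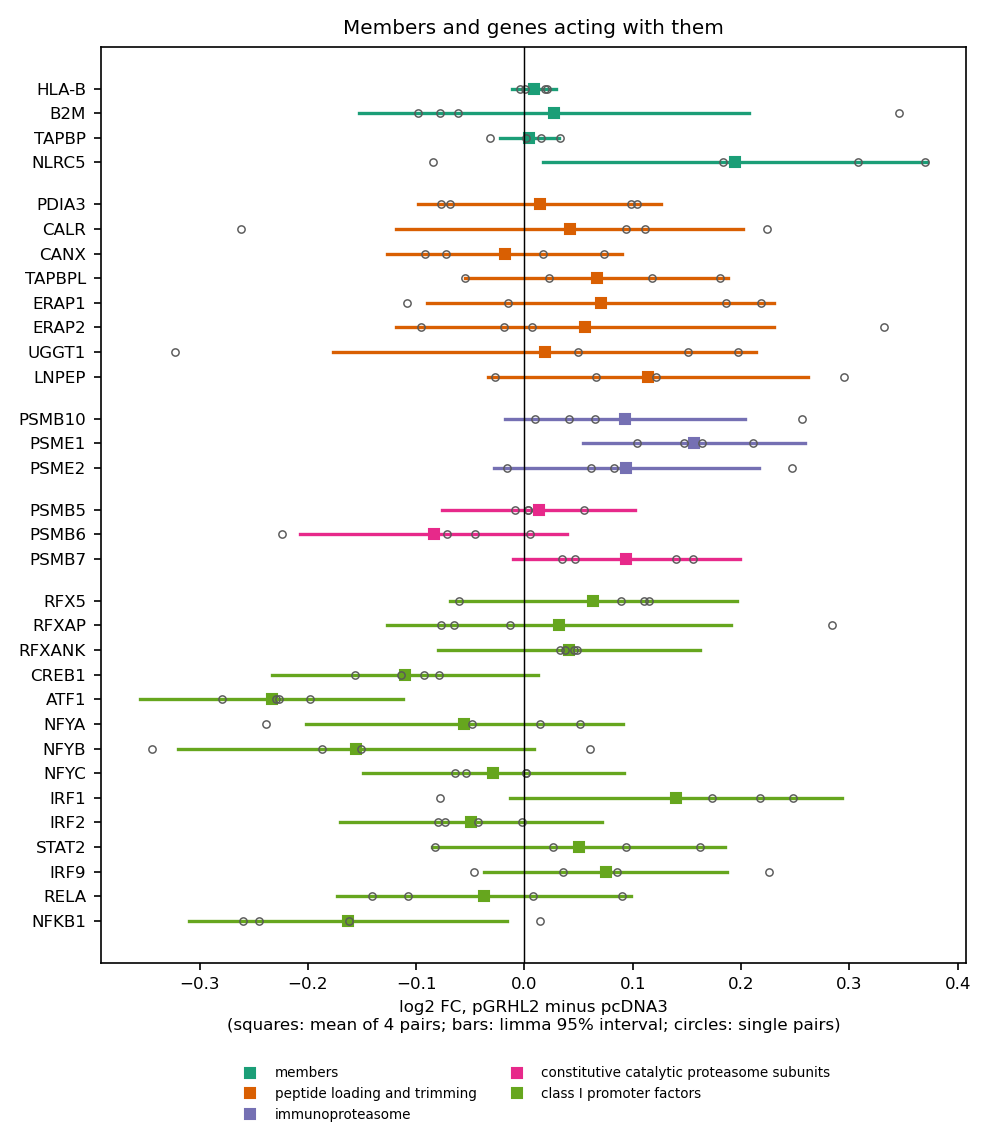
Log2 FC of pGRHL2 over pcDNA3 (horizontal axis) for the measured members and for genes of peptide loading, the proteasome and class I promoter control. Squares are means of 4 pairs, bars are limma 95% intervals not adjusted for multiple testing, and circles are single pairs. B2M has 3 pairs below 0 and 1 at 0.35, and ATF1 has all 4 pairs below 0.

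Of 10 interferon-stimulated genes, 0 were called by limma, against 2.19% of all genes. An unadjusted p under 0.05 was found for 2 (IFI6 and IFI27, both higher with pGRHL2), against 16.0% of all genes. The log2 FC was positive for 7 and negative for 3. IFIT1 had pair differences of -0.55, 0.18, 0.37 and 0.37, and IFIT2 had -0.34, -0.33, 0.36 and -0.33, so that single genes of the list varied in sign between pairs. IFIT1 and IFIT2 were outside the rule for named genes and were picked as examples. In pair 4, where B2M was higher with pGRHL2, the differences were 0.53 for OAS1, 0.38 for ISG15, 0.37 for IFIT1 and 0.26 for IFI27. They were 0.21 for IFI6, 0.10 for UBE2L6, 0.02 for IFIT3, 0.00 for GBP2, -0.10 for MX1 and -0.33 for IFIT2. In pair 3, where B2M was lower with pGRHL2, the differences were 0.38 for OAS1, 0.04 for ISG15, 0.37 for IFIT1 and -0.10 for IFI27. They were 0.21 for IFI6, 0.14 for UBE2L6, 0.39 for IFIT3, 0.10 for GBP2, 0.01 for MX1 and 0.36 for IFIT2. Pairs 1 and 2, where B2M was also lower, were not set out in this way. The relation of these values to B2M was not tested. The receptors, kinases and inhibitor of the pathway had log2 FC between -0.11 (SOCS1, limma adjusted p of 0.206) and 0.08.

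The core of polycomb repressive complex 2, which the study addressed as a repressor in hepatocytes, had 4 of 4 genes listed. The number called was 0, against 2.19% of all genes. SUZ12, a core subunit, had pair differences of -0.33, -0.18, -0.27 and -0.08 and a log2 FC of -0.21 (adjusted p by limma 0.124). The methyltransferases EZH1 and EZH2 had log2 FC of -0.08 and -0.02.

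Class I-like molecules fold as class I heavy chains do but present other ligands or none, and 7 of 11 had a row. MR1, which presents vitamin B metabolites and pairs with B2M, had pair differences of 0.20, 0.16, 0.32 and 0.22 and a log2 FC of 0.23 (adjusted p by limma 0.072). HFE, the B2M-bound regulator of iron uptake, was higher with pGRHL2 in 4 of 4 pairs with a log2 FC of 0.20 (adjusted p by limma 0.148). FCGRT, the B2M-bound receptor for IgG and albumin, had a log2 FC of 0.08 (adjusted p by limma 0.607). The stress ligands MICA and MICB, which lie near HLA-B, had no row, and neither did CD1D and ULBP2.

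Among 4 genes of class I turnover, MARCHF9, an E3 ubiquitin ligase of the membrane, had the lowest adjusted p of all lists. Its pair differences were -0.36, -0.23, -0.31 and -0.11, and its log2 FC was -0.25 (limma adjusted p of 0.056). SUSD6, an adaptor that guides class I molecules to degradation, had a log2 FC of 0.17 (adjusted p by limma 0.146) and was higher with pGRHL2 in 4 of 4 pairs. Of the MHC class II list, which presents peptides from outside the cell, all 8 HLA-D genes had no row. The class II invariant chain CD74 had a level of 9.84 and a log2 FC of 0.06 (adjusted p by limma 0.682), and the NLRC5 relative CIITA, the activator of class II genes, had a level of 3.38 and a log2 FC of 0.01. MR1, HFE, FCGRT, MARCHF9, SUSD6, PSME1, ATF1, NFKB1 and SUZ12 were singled out after their values were seen. For MR1, HFE, MARCHF9, SUSD6, PSME1, ATF1 and SUZ12 all 4 pairs had the same sign, as was the case for 24.0% of all genes.

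Since 5 of 9 members had no row, their surroundings were examined. Of 164 protein-coding genes in the MHC region, taken as chromosome 6 from 29550407 to 33457544 (the first and last protein-coding gene taken), 38 had a row (23.2%), compared with 71.7% of 19854 elsewhere. The 38 listed genes had a median level of 2.82, and the highest was AGPAT1 at 6.78, whereas the median of the table was 6.72. The ribosomal protein genes were listed for 76 of 77 symbols, with a median level of 12.88, and the 1 without a row was RPS18, which lies in the MHC region. RPS18 was singled out after its absence was seen. A missing row was therefore not read as a low level of the transcript.

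To describe this further, each gene's exons were read in windows of 50 bases, and the windows found unchanged on any alternate contig of hg38 were counted. The share was 77.3% for HLA-B and 100% for TAPBP, and among the members without a row it ran from 93.1% for HLA-C to 100% for HLA-E and TAP1. At least 50% of the windows of TAP1 occurred on each of 7 alternate contigs, and the same held for TAP2. This was so on 6 contigs for HLA-E and HLA-F, on 4 for TAPBP and on 1 for HLA-B and HLA-C. For NLRC5 the share was 0.

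Over all protein-coding genes outside the MHC region, the share listed fell from 73.2% of 18999 genes with under 10% of windows on alternate contigs to 34.2% of 546 genes with 90% or more, and the median level of the listed genes was 7.68 and 4.18. In the MHC region, 155 of 164 genes had 90% or more of their windows on alternate contigs, and 23.2% of the 155 were listed. PSMB3, a proteasome subunit on chromosome 17 with 100% of its windows on an alternate contig, had no row, while PSMB5, PSMB6 and PSMB7 with 0 such windows were listed. B2M went against this order, since 93.5% of its windows occurred on 1 alternate contig of chromosome 15 and its level was 11.02. B2M was not alone: of the 187 listed genes outside the MHC region with 90% or more, 72 had a level of at least 5. TRIM69, a neighbor of B2M with 98.0% of its windows on alternate contigs, had a level of 1.94. PSMB3 and TRIM69 were outside the rule for named genes and were picked as examples. Whether the index used by the authors held the alternate contigs is not given in the sources used here, and genes on alternate contigs also differ in kind from other genes, so the part of repeated sequence in the levels was not tested. The paralog families of the region, class I heavy chains included, may in addition share reads.

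**Figure D3:**
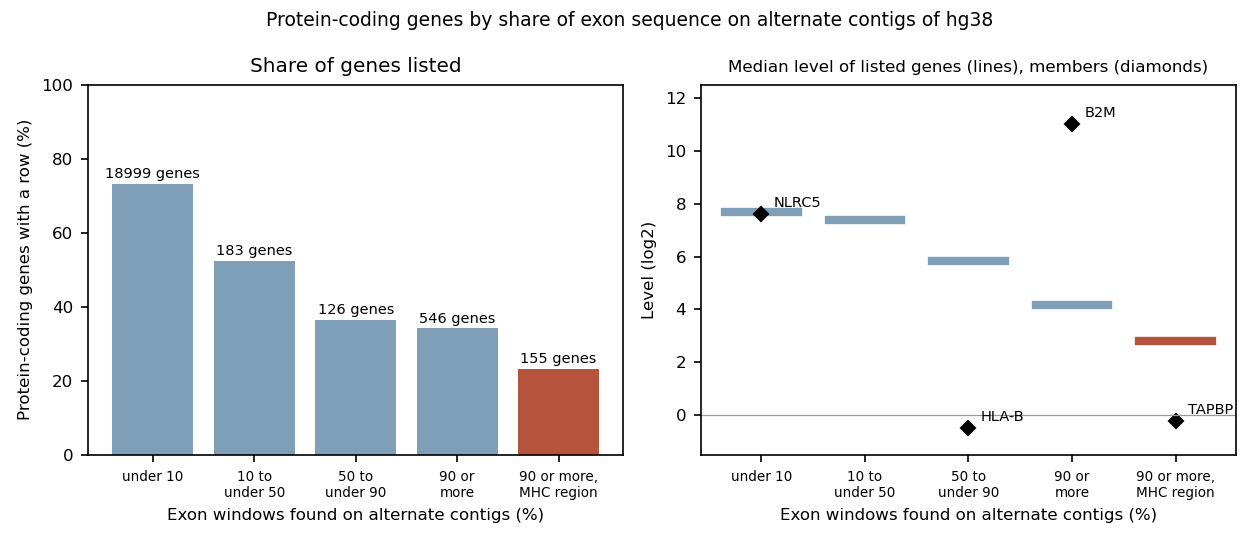
Protein-coding genes grouped by the share of their 50-base exon windows that occur on alternate contigs of hg38 (horizontal axis, %), with the share of genes that had a row (left, %) and the median log2 level of listed genes (right, lines). Blue stands for genes outside the MHC region and red for genes inside it, and diamonds are members (HLA-B lies in the region and is drawn in the group of 50 to under 90). The share listed falls from 73.2% to 34.2% outside the region and is 23.2% inside it, and B2M lies far above the median of its group while TAPBP lies below its own.

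Within the MHC region 1 of the 38 listed genes was called, against 2.19% of all genes, so the count is not read as a trait of the region. C4A, which encodes a complement component made by hepatocytes, had levels of 6.41, 6.31, 6.40 and 6.41 in pGRHL2 libraries 1 to 4 and of 6.63, 6.73, 6.64 and 6.63 in pcDNA3 libraries 1 to 4. Its groups did not overlap, as was the case for 24.0% of all genes. The log2 FC of C4A was -0.27 ± 0.10 (SD, n = 4 pairs, adjusted p by limma 0.0377). The call was lost when any 1 replicate was left out (limma adjusted p from 0.0784 without replicate 4 to 0.155 without replicate 2; 0.148 without replicate 1 and 0.111 without replicate 3). For C4A, 98.5% of the exon windows occurred on alternate contigs. C4A and its near-identical neighbor C4B share sequence, so that the value is uncertain.

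Promoter windows of RefSeq (GRCh38.p14), from 250 bases before to 50 bases after a transcription start, were found for 7 of the 9 members, with 8 windows in all, and were searched on both strands. The GRHL motif AACCGGTT occurred in 0 of these 8 windows and in 0.134% of 35093 windows, and its looser form AACNNGTT in 0 of 8 and in 3.52%. Motifs this rare would be absent from most sets of 8 windows, so no conclusion is drawn from the counts of 0. The interferon response element GAAANNGAAA occurred in 5 of 8 windows (HLA-F, TAP2, TAP1, TAPBP and B2M), compared with 3.58% of all windows. The TGACGC element bound by CREB/ATF factors, which is part of the module read by NLRC5, occurred in 3 of 8 windows (HLA-C, HLA-B and TAP2) and in 9.14% of all windows, and CCAAT, the NF-Y motif, in 5 of 8 and in 34.6%. The elements of B2M and HLA-B, the measured subunits of a class I molecule, were as follows, with the match in capitals.

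B2M, chr15:44711366-44711395, plus strand: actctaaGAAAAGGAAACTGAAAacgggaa
HLA-B, chr6:31357268-31357297, minus strand: ccaggatactcgTGACGCgtccccacttcc

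In B2M the capitals cover 2 overlapping matches of the interferon response element, from 144 to 129 bases before the start. In HLA-B they mark TGACGC, from 106 to 101 bases before the start. The start meant here is the RefSeq transcription start of the promoter window. The elements lie within the longer gene spans given above, which begin further upstream. A match describes the letters only, and binding was not measured by these files.

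Finally, genes whose pair differences resembled the mean of the 4 measured members were listed. This mean was 0.07, 0.07, 0.03 and 0.06 in pairs 1 to 4. Among 10806 other genes with a level of at least 5 and at least the same spread, GTF2H5, CDKN2AIPNL, ZNF330, UBL5 and TMEM9 had the highest Pearson correlation with it over the 4 pairs, and 383 genes exceeded 0.95. With 4 points per gene, such a likeness describes the pattern over these 4 pairs alone.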

How the data were processed

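RNA-seq of mRNA from HepG2 cells was analysed for 4 pGRHL2 and 4 pcDNA3 libraries, grouped and numbered by the sample labels and described by the study as independent biological replicates. According to the methods, the authors aligned reads to hg38 with HISAT2, counted them over exons with HTSeq without strand at a minimum alignment quality of 10, removed genes with fewer than 10 reads in all, applied the rlog transformation of DESeq2 and related it to mean transcript length. The submitters' processing notes list HISAT2 2.2.1, HTSeq 0.9.1 and DESeq2 1.40.2, whereas the methods of the study name other versions of HISAT2 and DESeq2. The deposited values were taken as log2 values, although the table is named as FPKM: 3.71% lie below 0. The part of transcript length in them was not checked. Rlog understates differences of weakly expressed genes. Counting without strand cannot separate overlapping antisense genes. The number of columns of other samples was 0, and 1 value had a stray character removed.

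The test was limma 3.58.1 in R 4.3.3 (lmFit, eBayes with trend) with the replicate number as a block, Benjamini-Hochberg adjustment over all 17561 genes and a threshold of 0.05. The pair means are equal in every gene (tolerance 1e-09), so the deviations of same-numbered libraries mirror each other by construction and their correlation is no check of the pairing; the block leaves 3 residual degrees of freedom. Intervals are limma 95% intervals. Coordinates and exons are those of GENCODE release 44 on hg38, which matched 99.9% of symbols. Coding stretches are the middle 90 bases of the first exon whose coding part reached a set minimum, which was longer than the stretch. Near copies were sought from shared runs of 25 bases and kept with at most 10 differences.

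The members and lists were chosen with earlier results of these data known. Named genes were the members, GRHL2, list genes with an adjusted p under 0.05, PSMB8, PSMB9, PDIA3, CALR, RFX5 and IRF1, the 5 genes most like the members (mean of at least 5), and other called genes of the MHC region; 1 further gene of this rule is not reported here. Splitting the counts of alternate-contig genes by the MHC region was chosen after seeing the data. Alternatives were robust eBayes, omission of the block, library weights, other scalings, filters on level, removal of trends (natural splines with 5 degrees of freedom), each replicate left out (both libraries of a pair), and an adjusted p under 0.01.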

Additional observations from a re-analysis of the deposited data

Results flagged for a closer look

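In 9 named genes, the 4 pair differences were examined for 1 value that lay apart from the other 3 by a Dixon ratio at the 95% level, which chance exceeds in about 1 of 20 groups, and 3 such values were found. B2M had a difference of 0.35 in pair 4 against -0.06, -0.10 and -0.08 in the others. C4A had a difference of -0.42 in pair 2, against -0.22, -0.24 and -0.22. RFX5 had a difference of -0.0602 in pair 4, against 0.11, 0.11 and 0.09. Because the pair means are equal, the library of the pair that differed cannot be told apart, and the causes were not tested.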

How the results depend on the processing

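The number of members called stayed at 0 in every alternative, and the adjusted p of NLRC5 lay between 0.0597 and 0.643. The log2 FC of B2M turned to -0.0054 with library weights, that of HLA-B to -0.0167 with trends removed together with the block, and that of TAPBP to -0.00 with median centring and to -0.0197 with trends removed, while HLA-B and TAPBP had no value under the filters on a mean of at least 0 or 5. PDIA3 turned to -0.0002 with library weights. With replicates left out, log2 FC ran from 0.0051 to 0.0135 for HLA-B, -0.0792 to 0.0687 for B2M (negative without replicate 4), -0.0051 to 0.0165 for TAPBP (negative without replicate 1), 0.1358 to 0.2873 for NLRC5, -0.0161 to 0.0445 for PDIA3 (negative without replicates 2 or 4) and -0.0188 to 0.1429 for CALR (negative without replicate 2). C4A lost its call with each replicate left out and under the filter on a mean of at least 5 (adjusted p of 0.0552, where 10858 genes were tested).

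Without the replicate block, 7 list genes were called higher and 6 lower, and 1821 genes were called higher and 1427 lower over the table. That fit counts the mirrored libraries of a pair as independent, with 6 residual degrees of freedom against 3 with the block. With the block, 297 were higher and 88 lower. Calls of list genes were otherwise 1 lower with robust eBayes, 2 lower with library weights and 1 lower, MARCHF9, with equal totals without GRHL2. Higher calls over the table were 503 (library weights), 495 (equal totals), 63 (mean of at least 5), 117 (trends removed) and 77 (adjusted p under 0.01). Lower calls were 221 with library weights and 10 with an adjusted p under 0.01. With replicates left out, higher calls ranged from 79 to 156 and lower calls from 8 to 68. The causes of the shifts under the other settings were not tested, and depth behind single values is unknown.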
